A study of Mus musculus with 21 samples.

Results

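Toll-like receptors sense microbial products through a short chain of shared proteins, and the transcripts of 10 of these proteins were followed here in mouse bone-marrow-derived macrophages. They are the lipopolysaccharide co-receptors Cd14 and Ly96, the adaptors Myd88, Tirap, Ticam1 and Ticam2, and the kinase family members Irak1, Irak2, Irak3 and Irak4. The genes were chosen by name, as rows of the deposited count table whose Ensembl ID maps to these symbols, and all 10 were found among its 23250 genes. All 10 also passed the filter on low counts that left 13468 genes for testing, and each mapped to a protein-coding gene of GENCODE M21 (build GRCm38).

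The cells came from C57BL/6J marrow grown for 7 days with supernatant of a line that makes GM-CSF, a growth factor for myeloid cells, and the series describes them as deficient in the mannose receptor (gene Mrc1). They were left untreated (0 h), or received either FcMR, in which the Fc region of human IgG1 is fused to the extracellular region of the mannose receptor, or an isotype control, for 4, 12 or 24 h. These 7 groups hold 3 libraries each, 21 in all. The question was what soluble mannose receptor does to macrophages, so FcMR was set against isotype control at each time. Untreated cells were sampled at 0 h only, so a difference between isotype control and untreated cells cannot be told apart from time in culture, and the labels do not say whether the 3 libraries of a group came from separate mice, so p-values measure the spread between libraries, which may be technical.

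As background, Cd14 is a GPI-anchored surface protein that hands bacterial lipopolysaccharide to Ly96 (MD-2), which binds it together with Tlr4. Tirap bridges Tlr2 and Tlr4 to Myd88, which assembles a complex with the kinase Irak4 and then Irak1 or Irak2 that leads, through the ubiquitin ligase Traf6, to NF-kappaB and MAP kinases. Ticam2 bridges internalised Tlr4 to Ticam1, the adaptor of Tlr3 and of the interferon branch. Irak3 (IRAK-M), found mainly in monocytes and macrophages, is a family member with little kinase activity known for restraining this signalling and for its role in endotoxin tolerance.

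Library totals ran from 5532225 to 66729533 counts, so 3 counts corresponded to between 0.045 and 0.542 CPM (counts scaled by the library's total). The 10 genes had from 80 counts (Ly96 in one FcMR 4 h library) to 21179 counts (Cd14 in another) in a library. Mrc1 had 0 to 11 counts per library in all 21, at most 0.628 CPM. Summed macrophage markers (7 of 7 in the table) reached 19743 to 35181 CPM, and dendritic cell markers 2238 to 4327 CPM. Neutrophil markers summed to between 1070 and 1256 CPM in untreated cells and to between 167 and 189 CPM in isotype control cells at 24 h. Eosinophil markers summed to between 571 and 768 CPM in untreated cells and to between 57.9 and 94.7 CPM in isotype control cells at 24 h. T cell markers stayed at or under 0.654 CPM. The running numbers that open the titles of 2 libraries stand in each other's place: replicate 1 of FcMR at 12 h and replicate 3 of isotype control at 4 h. Both, called the swapped libraries below, were kept in the groups that their titles name. Both also stand apart within their group in how GC-rich transcripts are represented, and calls that change without both of them are given beside the results.

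FcMR-treated cells had more Cd14 and Irak3 RNA than isotype control cells at all 3 times, more Myd88 and Irak2 RNA at 4 h and more Ticam2 RNA at 24 h. Of the 10 genes, 4 rose at 4 h (Cd14, Myd88, Irak2 and Irak3), 2 rose at 12 h (Cd14 and Irak3) and 3 rose at 24 h (Cd14, Ticam2 and Irak3) at an adjusted p under 0.05 in edgeR's quasi-likelihood test. Over all genes tested, 17.7% changed at 4 h, 16.1% at 12 h and 20.9% at 24 h, where 8.62%, 8.61% and 11.4% were called higher and 9.13%, 7.49% and 9.44% lower. On counts without a GC correction and with all 21 libraries, none of the 10 was called lower by edgeR, by DESeq2 or by limma voom, while 2 were lower at an unadjusted p under 0.05 at 4 h (Irak1 and Irak4), 0 at 12 h and 1 at 24 h (Irak4). The median log2 fold change of the 10 was 0.23, 0.15 and 0.03 at the 3 times, beside -0.07, -0.02 and 0.01 over all genes tested. The plot of fold changes shows how uneven these 10 genes were.

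**Figure D1:**
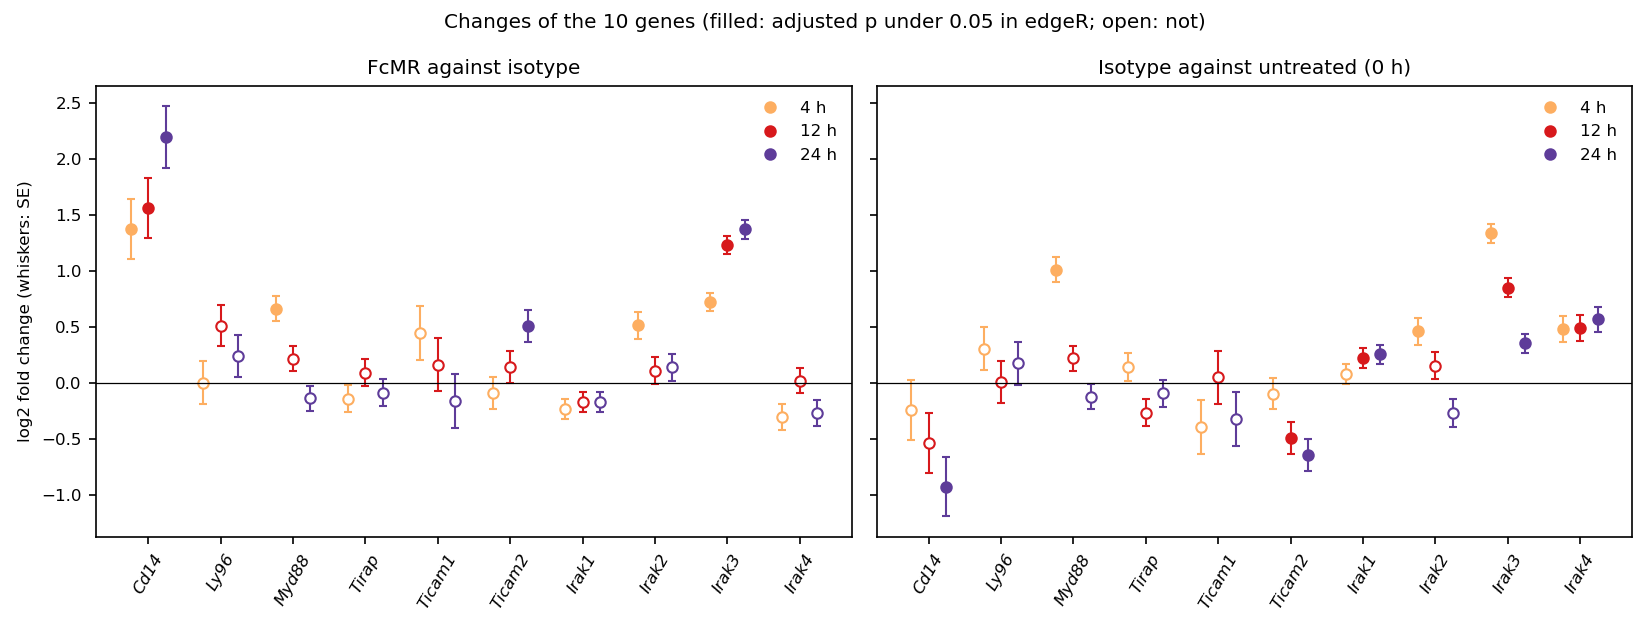
Log2 fold change (vertical axis, whiskers are standard errors) of each of the 10 genes for FcMR against isotype control (left) and isotype control against untreated cells (right), coloured by time, with filled points at an edgeR adjusted p under 0.05. Cd14 and Irak3 are filled at all 3 times on the left, and Irak3 and Irak4 at all 3 times on the right.

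Among the co-receptors, Cd14 (chromosome 18, 36725067 to 36726798, minus strand) had the highest level of the 10 genes in every group. At 4 h it stood at 256, 176 and 436 CPM in the isotype control libraries and at 704, 797 and 758 CPM in the FcMR libraries. At 12 h the isotype libraries held 220, 245 and 243 CPM and the FcMR libraries 489, 795 and 806 CPM. At 24 h the isotype libraries held 185, 175 and 181 CPM and the FcMR libraries 848, 578 and 1049.7 CPM. Every FcMR library was above every isotype control library of its time, and also above the untreated libraries, which held 311, 297 and 418 CPM. The difference was 2.60-fold at 4 h (log2 1.38 ± 0.27 SE, edgeR adjusted p = 0.0014), 2.95-fold at 12 h (1.56 ± 0.27, adjusted p = 0.00044) and 4.57-fold at 24 h (2.19 ± 0.28, adjusted p = 1.2e-05). The FcMR group means were 753 ± 46.6, 697 ± 180.0 and 825 ± 237 CPM (SD, n = 3) and their ranges overlapped, while the isotype means were 289 ± 133, 236 ± 13.9 and 180 ± 5.17 CPM. The FcMR effect on Cd14 was not shown to differ over the 3 times (joint test, adjusted p = 0.30). Without both swapped libraries the log2 fold changes were 1.804, 1.76 and 2.21.

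Ly96, the partner of Tlr4 that holds lipopolysaccharide, was far less abundant. In isotype control cells it had 15.8, 16.8 and 10.2 CPM at 4 h, 10.5, 13.9 and 10.6 CPM at 12 h and 13.05, 12.5 and 13.3 CPM at 24 h. In FcMR-treated cells it had 14.6, 13.3 and 14.9 CPM at 4 h, 18.5, 15.98 and 15.1 CPM at 12 h and 14.8, 18.9 and 11.8 CPM at 24 h. The groups overlapped at 4 and 24 h and did not at 12 h, where the log2 fold change of 0.51 ± 0.18 missed the threshold in edgeR (adjusted p = 0.071). DESeq2 and limma voom put Ly96 at 12 h past it (adjusted p = 0.047 and 0.022), as did the GC correction described below (0.43, edgeR adjusted p = 0.0068). Without both swapped libraries the log2 difference of Ly96 was -0.20 at 4 h (edgeR adjusted p = 0.43) and 0.43 at 12 h (adjusted p = 0.10).

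**Figure D2:**
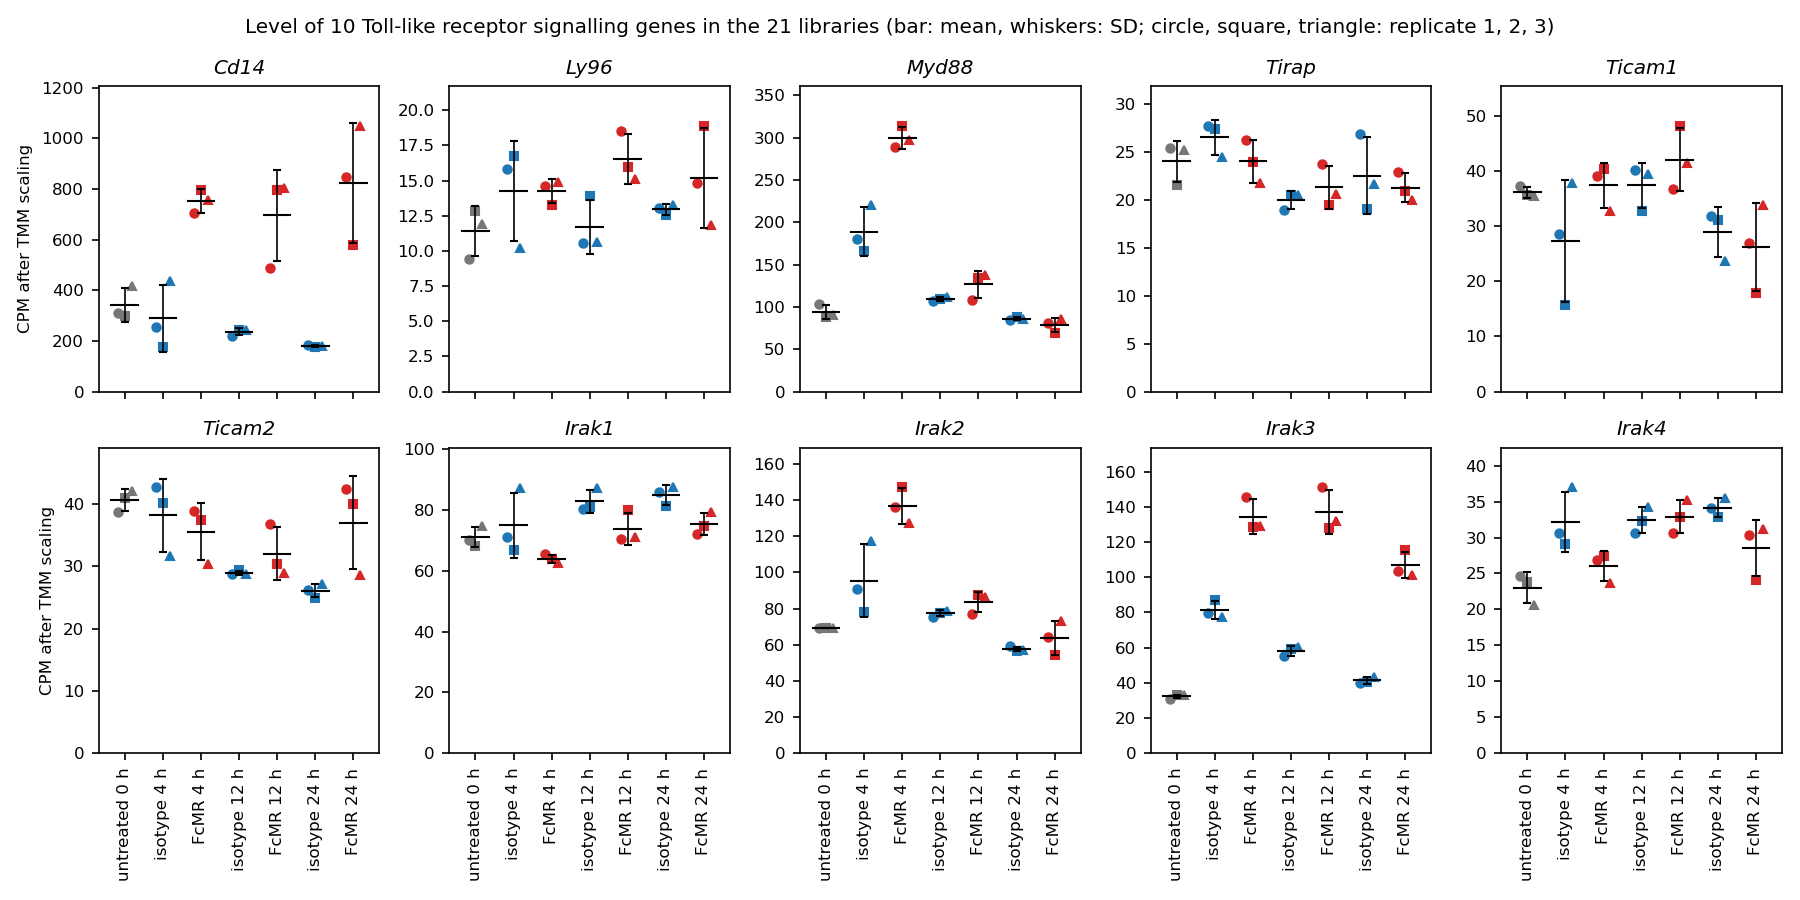
CPM after TMM scaling (vertical axis, from 0) of the 10 genes in the 21 libraries, with points for libraries, a bar for the mean and whiskers for the SD of each group of 3, in grey for untreated, blue for isotype control and red for FcMR. The red points lie above the blue ones of the same time for Cd14 and Irak3, and for Myd88 and Irak2 at 4 h.

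Among the adaptors, Myd88 (chromosome 9, 119335934 to 119341411, minus strand) rose at the earliest time. At 4 h the isotype control libraries held 180.0, 166 and 221 CPM and the FcMR libraries 289, 314 and 297 CPM, with no overlap. The FcMR libraries held 109, 135 and 137 CPM at 12 h and 81.2, 69.2 and 85.3 CPM at 24 h. Isotype control libraries held 107, 109 and 111 CPM at 12 h and 84.6, 88.2 and 85.2 CPM at 24 h, so the groups overlapped at both later times. FcMR exceeded isotype control 1.59-fold at 4 h (log2 0.67 ± 0.11 SE, edgeR adjusted p = 0.00035), and the log2 difference was 0.22 ± 0.11 at 12 h (adjusted p = 0.22) and -0.13 ± 0.11 at 24 h (adjusted p = 0.47). Without both swapped libraries the 12 h difference was 0.32 with an adjusted p of 0.024. Myd88 shares 290 bases, 11.3% of its exons, with Acaa1a on the opposite strand, and the library kit as named in the labels is not stated to keep strand, so reads from these bases cannot be assigned to one gene.

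Ticam2 (chromosome 18, 46557291 to 46574533, minus strand), which links Tlr4 to Ticam1, differed at 24 h. The isotype control libraries then held 26.2, 24.98 and 27.2 CPM and the FcMR libraries 42.5, 40.1 and 28.5 CPM. The groups did not overlap, but FcMR replicate 3, at 28.5 CPM, lay close to the highest isotype control library, at 27.2 CPM. The log2 fold change was 0.51 ± 0.14 SE (edgeR adjusted p = 0.016). The call was lost when FcMR 24 h replicate 1 or 2 or isotype 24 h replicate 1 or 2 was left out (log2 0.41 to 0.52, adjusted p = 0.052 to 0.094), and when the 6 libraries compared were fitted alone (0.50, adjusted p = 0.078). Ticam2 also shares 838 exon bases, 14.5% of its exons, with Tmed7 on the same strand, a gene with 41375 counts over the 21 libraries beside 10807 for Ticam2, so its level is uncertain to that extent. At 4 and 12 h its groups overlapped (log2 -0.09 and 0.14).

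Tirap and Ticam1 did not pass the test at any time with all libraries and uncorrected counts. Tirap, the bridging adaptor of Tlr2 and Tlr4, lay between 18.96 and 27.7 CPM in all 21 libraries, and its FcMR against isotype difference had 95% intervals of -0.38 to 0.10, -0.14 to 0.33 and -0.32 to 0.16 (log2) at 4, 12 and 24 h. Ticam1, the adaptor of Tlr3, varied more between replicates. At 4 h its isotype control libraries held 28.6, 15.7 and 37.8 CPM beside 39.2, 40.4 and 32.8 CPM with FcMR, a log2 difference of 0.45 with an interval of -0.03 to 0.93. Its lowest library in each of isotype 4 h and FcMR 24 h was the one in which GC-rich transcripts were least represented. Without isotype 4 h replicate 3 the Ticam1 difference at 4 h was 0.76 (edgeR adjusted p = 0.037).

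Among the IRAKs, Irak3 (chromosome 10, 120141648 to 120202130, minus strand), the restraining member, had the smallest p-value of the 10 genes at every time. Untreated libraries held 31.1, 32.8 and 32.9 CPM. With isotype control it stood at 79.8, 87.3 and 77.5 CPM at 4 h, 55.2, 59.0 and 60.6 CPM at 12 h and 39.8, 40.7 and 43.5 CPM at 24 h. With FcMR it stood at 146, 129 and 129 CPM at 4 h, 151, 128 and 132 CPM at 12 h and 104, 116 and 101 CPM at 24 h. Every FcMR library, whatever its time, lay above every isotype control and untreated library. In the order of group means, FcMR at 12 h and 4 h overlapped, and each later pair of neighbours (FcMR 24 h, isotype 4 h, isotype 12 h, isotype 24 h, untreated) did not. The FcMR excess was 1.65-fold at 4 h (log2 0.72 ± 0.08 SE, edgeR adjusted p = 9.6e-06), 2.35-fold at 12 h (1.23 ± 0.08, adjusted p = 1.6e-08) and 2.59-fold at 24 h (1.37 ± 0.08, adjusted p = 2e-09). Without both swapped libraries the log2 values were 0.69, 1.16 and 1.38. Irak3 shares 192 exon bases, 5.22% of its exons, with Tmbim4 on the opposite strand.

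Irak2, a kinase that with Irak1 relays the signal from Irak4 to Traf6, followed Myd88 in time. At 4 h the isotype control libraries held 91.1, 77.9 and 118 CPM and the FcMR libraries 136, 147 and 127 CPM, with no overlap. The difference was 1.43-fold (log2 0.52 ± 0.12 SE, edgeR adjusted p = 0.0057). The call was lost when only the 6 libraries compared were fitted (0.51, adjusted p = 0.10). At 12 h FcMR libraries held 77.1, 87.3 and 86.6 CPM beside 75.5, 77.7 and 78.9 CPM, and at 24 h 64.5, 54.3 and 72.9 CPM beside 59.1, 56.8 and 57.3 CPM. The groups overlapped at both later times, with log2 differences of 0.11 and 0.14 (edgeR adjusted p = 0.65 and 0.48), which the GC correction put at 0.20 and 0.21, past the threshold.

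Irak1 and Irak4 were lower with FcMR in most comparisons without passing the test. Irak1, the first IRAK described as a signalling kinase of the interleukin-1 receptor, had 71.1, 66.7 and 87.1 CPM with isotype control and 65.4, 63.7 and 62.6 CPM with FcMR at 4 h. At 12 h it had 80.5, 80.8 and 87.3 CPM beside 70.5, 80.0 and 71.2 CPM with FcMR, and at 24 h 86.0, 81.3 and 87.4 CPM beside 72.2, 74.9 and 79.4 CPM. FcMR libraries lay below all isotype control libraries at each time, with log2 differences of -0.23, -0.17 and -0.17 (edgeR adjusted p = 0.082, 0.24 and 0.20). The Irak1 value at 4 h was -0.11 without both swapped libraries (adjusted p = 0.33) and -0.11 without isotype 4 h replicate 3 alone, and -0.24 with the GC correction, which called it lower (adjusted p = 0.025). Irak4, the kinase that joins Myd88 first, had 30.6, 29.0 and 37.0 CPM with isotype control and 26.9, 27.5 and 23.7 CPM with FcMR at 4 h (log2 -0.30, adjusted p = 0.080), and 34.0, 32.9 and 35.5 CPM beside 30.3, 24.1 and 31.2 CPM at 24 h (-0.26, adjusted p = 0.12). Its groups overlapped at 12 h (0.02). Irak4 was called lower at 24 h with the GC correction (-0.30, adjusted p = 0.046), and at 4 h when FcMR 24 h replicate 2 was left out of the fit (-0.30, adjusted p = 0.042). Counts of genes in which the 3 FcMR and 3 isotype libraries do not overlap are large in these data, at 29.7%, 35.4% and 34.4% of all genes tested at 4, 12 and 24 h.

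Whether the FcMR effect itself changed with time was tested jointly over 4, 12 and 24 h, and 2 of the 10 genes passed, Myd88 and Irak3, beside 11% of all genes tested. The 2 moved in opposite ways. The Myd88 difference was 0.80 lower at 24 h than at 4 h on the log2 scale (-0.80, edgeR adjusted p = 0.0076), and the Irak3 difference was 0.65 higher (adjusted p = 0.0028). The Irak3 excess over isotype control grew while its FcMR level went from 135 ± 9.79 CPM at 4 h to 107 ± 7.61 CPM at 24 h, while its isotype control level went from 81.6 ± 5.12 to 41.4 ± 1.92 CPM (SD, n = 3). Irak2, with a change of -0.38, did not pass (adjusted p = 0.21). Without isotype 4 h replicate 3 it did (-0.55, adjusted p = 0.017), and so did Ticam2 (0.73, adjusted p = 0.043). With the GC correction the Irak2 change was -0.29 (adjusted p = 0.010).

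The stretches before the transcription start are shown for Myd88, Irak2 and Irak3, which rose with FcMR and have an entry, and for Irak1, which holds the NF-kappaB match, from RefSeq (build GRCm38.p6), 5′ to 3′ on the minus strand for Myd88, Irak3 and Irak1 and on the plus strand for Irak2. Capitals mark a match, on either strand, to any of 4 motifs: the NF-kappaB site, AP-1 (TGANTCA), the interferon-stimulated response element and CRE (TGACGTCA). Of 10 genes, 7 have an entry in the promoter table used, and Cd14, Ly96 and Ticam2 have none. Bases that lie in an annotated exon next to the start were left out for Myd88 (23) and Irak3 (65, in exons of Tmbim4). RefSeq lists 2 starts for Irak3, of which the upstream one is used, and the GENCODE annotation of Myd88 extends further upstream than its RefSeq start.
Myd88, chr9:119340042-119340268: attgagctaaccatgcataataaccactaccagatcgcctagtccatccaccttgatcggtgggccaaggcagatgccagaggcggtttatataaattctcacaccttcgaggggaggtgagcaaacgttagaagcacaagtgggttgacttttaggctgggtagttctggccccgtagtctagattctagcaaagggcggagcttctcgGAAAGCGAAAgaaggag
Irak2, chr6:113638217-113638466: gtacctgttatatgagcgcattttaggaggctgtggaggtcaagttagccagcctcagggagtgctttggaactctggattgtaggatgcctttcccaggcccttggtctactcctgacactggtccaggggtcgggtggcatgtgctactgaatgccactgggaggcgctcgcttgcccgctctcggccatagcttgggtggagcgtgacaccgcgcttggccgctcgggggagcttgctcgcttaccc
Irak3, chr10:120202196-120202380: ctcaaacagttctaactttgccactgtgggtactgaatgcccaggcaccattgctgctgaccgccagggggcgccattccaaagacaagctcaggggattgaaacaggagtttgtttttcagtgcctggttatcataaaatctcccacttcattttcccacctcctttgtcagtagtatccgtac
Irak1, chrX:74023919-74024168: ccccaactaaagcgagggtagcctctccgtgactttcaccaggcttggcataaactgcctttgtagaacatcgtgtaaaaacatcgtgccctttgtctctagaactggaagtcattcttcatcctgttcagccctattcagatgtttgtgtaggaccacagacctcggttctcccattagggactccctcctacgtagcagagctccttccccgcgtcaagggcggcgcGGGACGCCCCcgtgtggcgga
In the 250 bases before the start, Myd88 held 1 interferon-response match, which begins 40 bases before the start, and none of the other motifs. Irak1 held 1 NF-kappaB match, which begins 21 bases before the start and, in its last bases, lies over the Mir718 hairpin annotated on the same strand. Irak2 and Irak3, which rose, and Irak4, Ticam1 and Tirap held no match to the 4 motifs in this window. Over all 32851 promoters of the table, 2.98% held the interferon-response element, 7.25% the NF-kappaB site, 6.75% AP-1 and 1.55% CRE. A match is a run of letters and not a shown binding site, and enhancers lie outside this window.

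Isotype control cells were next set against untreated cells, which share those isotype libraries with the comparisons above, so the 2 sets of fold changes are not independent. Of the 10 genes, 4 rose at 4 h (Myd88, Irak2, Irak3 and Irak4), 3 rose and 1 fell at 12 h (Irak1, Irak3 and Irak4 up, Ticam2 down), and 3 rose and 2 fell at 24 h (the same 3 up, Ticam2 and Cd14 down). Over all genes tested, 35.6%, 41.6% and 42.2% changed at 4, 12 and 24 h, with 20.4%, 22% and 21.3% called higher and 15.2%, 19.6% and 20.9% called lower. Irak3 was 2.52-fold higher at 4 h, 1.805-fold at 12 h and 1.28-fold at 24 h (log2 1.34 ± 0.08, 0.85 ± 0.08 and 0.36 ± 0.08 SE, edgeR adjusted p = 9.5e-10, 2.3e-07 and 0.0023). Myd88 was 2.02-fold higher at 4 h (1.01 ± 0.11, adjusted p = 1.2e-06), from 103, 87.8 and 89.9 CPM in untreated cells. Irak2 was 1.38-fold higher at 4 h (0.46 ± 0.12, adjusted p = 0.0062), from 69.5, 69.3 and 69.5 CPM. This Irak2 call was lost with the deposited factors (0.34, edgeR adjusted p = 0.15) and with no filter on low counts (0.36, adjusted p = 0.067). It was also lost when only the libraries compared were fitted (0.46, adjusted p = 0.063). So the genes that FcMR raised over isotype control at 4 h, other than Cd14, were also above untreated cells in isotype control cells.

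Irak4 went from 24.6, 23.9 and 20.6 CPM in untreated cells to group means of 32.2, 32.4 and 34.2 CPM with isotype control (log2 0.49, 0.49 and 0.57, edgeR adjusted p = 0.0030, 0.0019 and 0.00061). The 4 h call was lost with the deposited factors (0.34, edgeR adjusted p = 0.057). Irak4 shares 395 exon bases, 7.87% of its exons, with Twf1 on the opposite strand, which has 28358 counts over all libraries beside 9640 for Irak4. Irak1 was 0.22 and 0.26 higher at 12 and 24 h (adjusted p = 0.049 and 0.025), and the 12 h call was lost in 10 of 32 other settings. Ticam2 went from 38.7, 41.0 and 42.1 CPM to 28.7, 29.3 and 28.8 CPM at 12 h (-0.49, adjusted p = 0.0095) and to 26.2, 24.98 and 27.2 CPM at 24 h (-0.64, adjusted p = 0.0015). Cd14 was lower than in untreated cells by 0.92 on the log2 scale at 24 h (-0.92, adjusted p = 0.0095), and without untreated replicate 3 by 0.75 (-0.75, adjusted p = 0.053). Leaving out isotype 4 h replicate 3 raised the count at 4 h from 4 to 7, adding Cd14 (-0.66), Ticam1 (-0.70) and Ly96 (0.51), while the count over all genes went from 4792 of 13468 to 6251 of 14020. Without both swapped libraries, Cd14 (-0.51, adjusted p = 0.025) and Myd88 (0.25, adjusted p = 0.021) were also called at 12 h.

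Per kilobase of annotated exon, Cd14 and Myd88 ranked first and second of the 10 in every group, at 198 and 36.4 CPM per kb in untreated cells. Irak3 changed place most. It ranked 7 of 10 in untreated cells at 8.78 CPM per kb, and 3 of 10 in FcMR-treated cells at 36.6, 37.3 and 29.1 CPM per kb at 4, 12 and 24 h. In isotype control cells it also ranked 3 of 10 at 4 h (22.2 CPM per kb), then 5 at 12 h (15.8) and 6 at 24 h (11.3). With the longest transcript as the length it passed Myd88 at FcMR 24 h, at 34.5 beside 32.0 CPM per kb. Tirap or Irak4 was lowest in every group but isotype 24 h, where Ticam2 was.

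**Figure D3:**
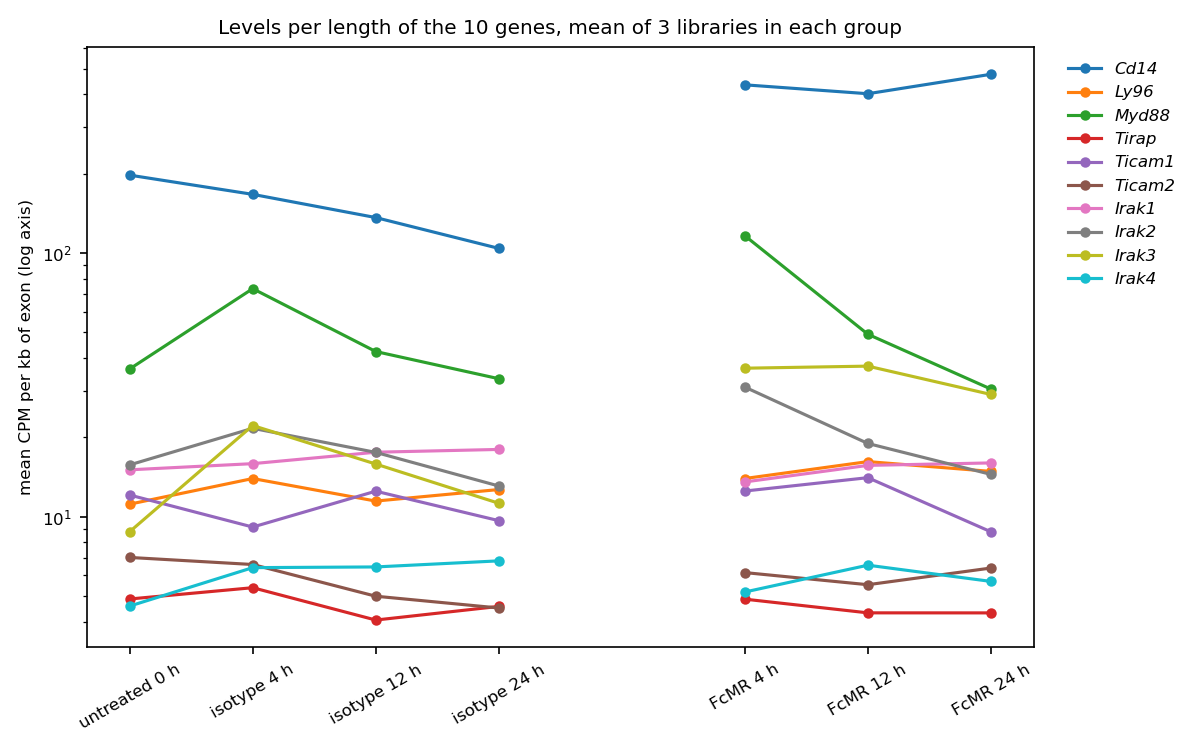
Mean CPM per kb of exon (log axis) of the 10 genes in each group of 3 libraries, with lines joining the groups in time order for untreated and isotype control cells (left) and FcMR-treated cells (right). The left Irak3 line runs from 8.78 in untreated cells to 22.2, 15.8 and 11.3 with isotype control at 4, 12 and 24 h. The right Irak3 line lies between 29.1 and 37.3 in the FcMR groups, while Cd14 lies highest throughout.

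A technical measure moved with several of these values. The GC tilt of a library, here the mean log2 deviation from the gene's mean of the tenth of genes richest in GC minus that of the tenth poorest, was -0.83, -1.58 and 0.64 in isotype 4 h, -0.72, 0.72 and 0.80 in FcMR 12 h and -0.38, -1.30 and 0.40 in FcMR 24 h, but -0.10 to -0.05 in isotype 24 h. Within groups, the library with the highest tilt held the highest Myd88 level in 7 of 7 groups and the highest Irak4 level in 6, and the lowest Ly96 level in 6 and lowest Ticam2 level in 5. Irak3 was highest there in 1 of 7 and lowest in 4. With counts corrected for transcript GC in each library, the FcMR fold changes of Cd14 (log2 1.41, 1.61 and 2.23) and Irak3 (0.79, 1.24 and 1.37) stayed called at all 3 times, as did those of Myd88 and Irak2 at 4 h (0.64 and 0.51) and Ticam2 at 24 h (0.42, edgeR adjusted p = 0.0043). At 4 h it newly called Ticam1 higher (0.41, adjusted p = 0.045) and Irak1 lower (-0.24, adjusted p = 0.025). At 12 h it newly called Myd88 (0.31, adjusted p = 7.9e-05), Ly96 (0.43, adjusted p = 0.0068) and Irak2 (0.20, adjusted p = 0.011) higher. At 24 h it newly called Irak2 higher (0.21, adjusted p = 0.0071) and Irak4 lower (-0.30, adjusted p = 0.046). Over all genes, calls with the correction went from 2390 to 3723 at 4 h, from 2169 to 3369 at 12 h and from 2813 to 4036 at 24 h.

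**Figure D4:**
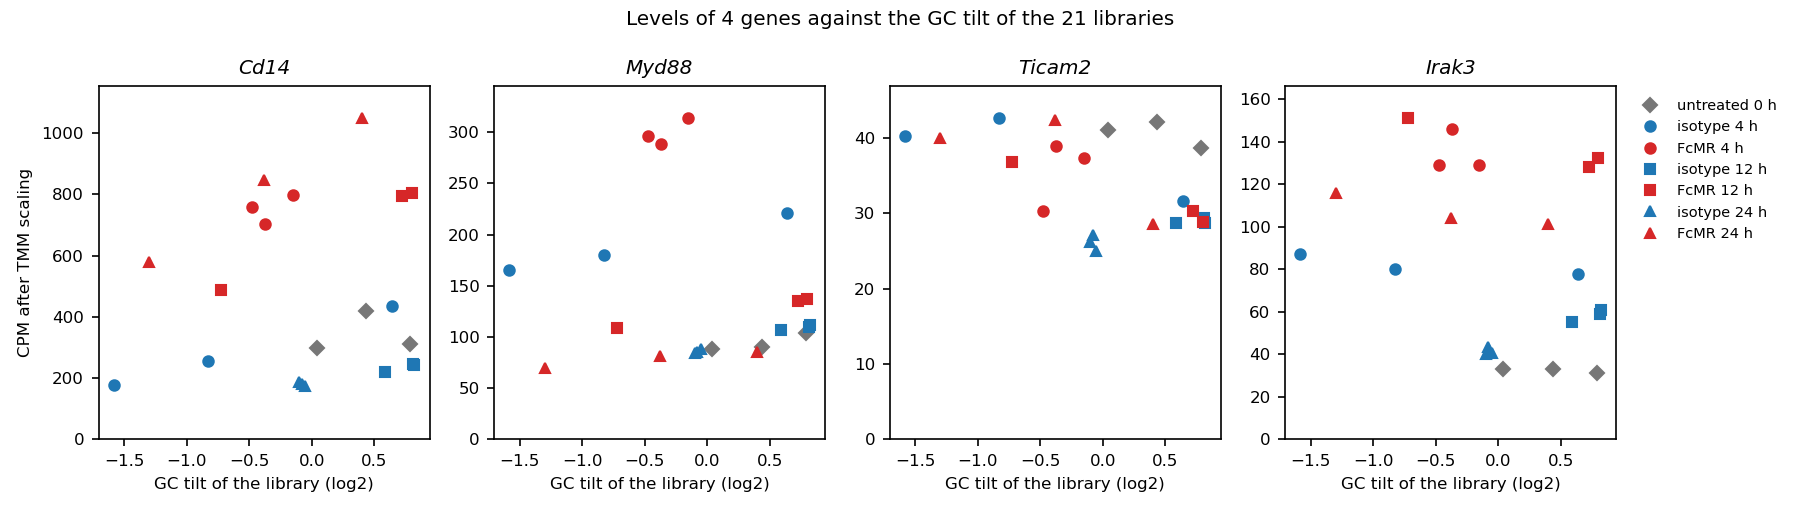
CPM after TMM scaling (vertical axis, from 0) of Cd14, Myd88, Ticam2 and Irak3 against the GC tilt of each library (log2), coloured by treatment and shaped by time. Red FcMR points of Irak3 lie above 100 CPM along the whole range of tilt, while within a group Myd88 is highest in the library furthest right.

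Marker sums also differed between the groups. Neutrophil markers (6 of 6 in the table) summed to 858 to 1165 CPM with isotype control and 815 to 975.1 CPM with FcMR at 4 h, to 263 to 340 and 308 to 508 CPM at 12 h, and to 167 to 189 and 212 to 222 CPM at 24 h. At 24 h the higher sum with FcMR was that of S100a8 (group means of 85.4 and 137 CPM), while S100a9 (69.3 and 60.6 CPM), Csf3r (20.1 and 19.3 CPM), Ly6g, Mpo and Elane were no higher. Fibroblast markers were at most 1.18 CPM with isotype control and 2.98 to 4.15 CPM with FcMR at 24 h. That gap was Dcn, with group means of 0.098 and 2.97 CPM, while Col1a1 stood at 0.58 and 0.68 CPM and Col1a2 at 0 and 0.069 CPM. Macrophage markers summed to 31004 to 35181 CPM with isotype control and 25244 to 27094 CPM with FcMR at 24 h. Most of that sum was Lyz2 (group means of 28184 and 21707 CPM). Cd68, Itgam, Mertk and Fcgr1 were also lower with FcMR, while Adgre1 (837 and 1507 CPM) and Csf1r (932 and 976 CPM) were higher. The part of these cell types in the values of the 10 genes was not tested. In bulk RNA fewer cells of a type and less RNA per cell cannot be told apart.

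Across the 21 libraries the genes whose log2 CPM ran most like these 3 were ranked among 11435 genes, as a description of libraries that share groups. Myd88 ran most like Tent4a (Pearson r = 0.99), Cdkn1a (0.98) and Usp12 (0.97). Irak3 ran most like Il12a (0.98), Cct3 (0.98) and Rasgrp1 (0.97), and Cd14 most like Dgat2 (0.95), Snx18 (0.94) and Lcn2 (0.94). Among the 45 pairs of the 10 genes, Myd88 with Irak2 had the highest correlation (0.96), followed by Cd14 with Irak3 (0.71), and Ticam2 with Irak4 the lowest (-0.65).

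The rest of the pathway was read from 4 lists. For these lists, rose and fell mean higher and lower with FcMR than with isotype control at that time. Of 19 Toll-like receptors and accessory proteins, 18 were tested, and with FcMR 3 rose and 1 fell at 4 h, 5 rose and 3 fell at 12 h, and 2 rose and 6 fell at 24 h. Tlr3, the double-stranded RNA receptor, rose at 4 h (20.8 ± 2.40 to 43.3 ± 4.93 CPM, log2 1.06), as did the nucleic acid receptors Tlr7 (0.69) and Tlr9 (0.63). Tlr7 was also called higher at 12 h (0.58, edgeR adjusted p = 0.035), and Tlr9 was called lower at 24 h (-0.62, edgeR adjusted p = 0.048). Tlr2 and its partner Tlr1, receptors for lipoproteins, were higher than with isotype control at 12 h (1.04 and 1.18) and 24 h (1.76 and 1.04). Tlr2 itself fell from 4 to 24 h in both treatments. Its means at 4, 12 and 24 h were 871 ± 59.8, 330 ± 12.7 and 132 ± 8.69 CPM with isotype control. With FcMR they were 1010 ± 17.9, 677 ± 57.7 and 447 ± 55.0 CPM (SD, n = 3), beside 634 ± 49.5 CPM in untreated cells. Tlr13, a receptor for bacterial ribosomal RNA, fell at all 3 times (-0.73, -0.64 and -0.84). The scavenger receptor Cd36 fell at 12 and 24 h (-0.46 and -1.28), and Cd180, a receptor related to Tlr4, fell at 24 h (-1.08). Tlr4, which Cd14 and Ly96 serve, did not pass at any time (-0.58, -0.03 and 0.03, edgeR adjusted p = 0.065, 0.96 and 0.95). It was named after its values were seen.

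Of 5 interleukin-1 family receptors that signal through Myd88, 2 fell at each time and the others did not pass. Il18r1, a chain of the interleukin-18 receptor, fell at all 3 times (log2 -1.07, -1.86 and -1.67) with group means of at most 5.12 CPM in the isotype control and FcMR groups, and its partner Il18rap fell at 12 and 24 h (-1.16 and -1.62). Of 17 ubiquitin ligases and kinases downstream, 4 rose at 4 h, 5 rose and 1 fell at 12 h, and 7 rose at 24 h. Peli1, a ligase that modifies IRAKs, rose at all 3 times (1.13, 0.90 and 0.49), from 115 ± 14.6 to 251 ± 5.5 CPM at 4 h. Traf6 rose at 12 and 24 h (0.41 and 0.62). Of 10 inhibitors of the pathway, 9 were tested, and 2 rose and 1 fell at 4 h, 3 rose and 2 fell at 12 h, and 4 rose and 1 fell at 24 h. Tnfaip3 (A20), the ubiquitin-editing enzyme that limits NF-kappaB, rose at all 3 times (1.34, 1.26 and 0.75), from 594 ± 25.9 to 1508 ± 110 CPM at 4 h. The decoy receptor Il1r2 rose at 12 and 24 h (0.78 and 1.49), and the phosphatase Inpp5d fell at all 3 times (-0.74, -0.47 and -0.57). The median log2 fold change of the inhibitors was 0.15, 0.38 and 0.43, and that of the downstream ligases and kinases 0.01, 0.24 and 0.20. That of the Toll-like receptors and accessory proteins was -0.04, -0.12 and -0.07, and that of the interleukin-1 family receptors -0.49, -0.07 and -0.80. Over all genes tested it was -0.07, -0.02 and 0.01.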

How the data were processed

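RNA-seq libraries of 21 samples (75 bp single-end reads, TruSeq kit, per the labels' protocols) were processed by the authors with CASAVA 1.8.2, kallisto 0.44.0 and DESeq2 on mm10/GRCm38, per the submitters' processing notes. The raw table deposited by the authors holds whole numbers, taken here as estimated counts from kallisto, which edgeR's test also fits. The second deposited table is a linear signal, equal to the counts divided by a factor per gene and library, and served as an alternative only. The 10 genes, the pathway and marker lists and the tests were chosen with earlier results of these data known. From the counts, edgeR 4.0.16 (R 4.3.3; TMM, filterByExpr with a minimum of 10 counts) fitted all 21 libraries with 1 coefficient per group, and calls used Benjamini-Hochberg adjusted p under 0.05 over 13468 genes. CPM are after TMM; the floors and Mrc1 are without it. Intervals are 1.96 SE; those and the 3-count floors cover error from these libraries or counting only. The fit was tested on simulated data. Alternatives were RLE factors, DESeq2 1.42.0, voom of limma 3.58.1, the deposited factors, other filters, fewer libraries, a replicate block and a GC correction. Replicate numbers are shared between groups, but no label says what they mark. Beside the 10 genes, the text names Mrc1, up to 3 called genes each way per list and time, and the 3 most correlated genes for 3 of the 10. Symbols and positions come from GENCODE M21, which gave a symbol to 23206 of 23250 genes.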

Additional observations from a re-analysis of the deposited data

Results flagged for a closer look

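The effect of FcMR against isotype control differed over the 3 times for 2 of the 10 genes in edgeR's joint test. Myd88 (adjusted p = 0.0076) was raised at 4 h by 0.67 on the log2 scale and stood at 0.22 and -0.13 at 12 and 24 h. Irak3 (adjusted p = 0.0028) stood at 0.72, 1.23 and 1.37. Both passed in all 32 other settings, with adjusted p up to 0.021 for Myd88 and 0.049 for Irak3. For Irak3 the FcMR and isotype control libraries did not overlap at any of the 3 times, and for Myd88 they did not overlap at 4 h and did at 12 and 24 h.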

How the results depend on the processing

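Under 11 other settings and 21 fits that each left out 1 library, 2161 of 2240 values of the 10 genes kept their side of the threshold, 25 lost their call, 54 gained one, and 0 changed sign while called in either fit. The FcMR calls of Cd14 and Irak3 at all 3 times and of Myd88 at 4 h held in all 32, and that of Irak2 at 4 h in 31. Ticam2 at 24 h held in 27.

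For FcMR against isotype the GC correction called 6 of the 10 genes at 4 h, 5 at 12 h and 5 at 24 h in place of 4, 2 and 3, and the replicate block with GC correction called 6 at 12 h and 5 at 24 h, and 4 in place of 2 in the test over times. The GC correction also called more of all 13468 genes, 3723, 3369 and 4036 in place of 2390, 2169 and 2813 at 4, 12 and 24 h. The replicate block with GC correction called 3542 at 12 h, 4161 at 24 h and 3168 in the test over times. For isotype against untreated at 4 h, the deposited factors called 2 of the 10 genes in place of 4, and also fewer of all genes tested. At 12 h, fitting only the libraries compared called 7 of the 10 in place of 4, and also more of all genes tested. Both changes in the 10 genes thus went the same way as the change over all genes. For FcMR against isotype at 4 h, fitting only the libraries compared called 868 genes in all in place of 2390. Without both swapped libraries, 7 were called for isotype against untreated at 4 h, where the count over all genes was 6712 of 13797 in place of 4792 of 13468, and 4 in the test over times, where it was 2616 in place of 1484. The cause was not tested. Leaving out 1 library gave 4 to 7 calls for isotype against untreated at 4 h and 2 to 4 in the test over times. The highest values came without isotype 4 h replicate 3, where 6251 and 2294 of 14020 genes were called.

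Same-numbered libraries deviated together weakly and not throughout (correlations of -0.17 to 0.34), so the numbers were not taken to pair them. With the replicate block, 4, 2 and 3 of the 10 genes were called for FcMR against isotype at 4, 12 and 24 h, as without it. Over all 13468 genes the block called 2541, 2290 and 2911 at these times, in place of 2390, 2169 and 2813. In a comparison, 1 to 4 of 6 libraries correlated best with their own number. Depth limits Ly96 most, at 80 to 703 counts per library.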
